A study of Arabidopsis thaliana with 16 samples.

Results

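PUB19, SIS and RTE1 are 3 Arabidopsis genes whose transcripts were higher in salt-treated roots by a similar log2 amount in the 4 root zones measured. They were chosen for that behaviour, so their NaCl changes are described here without a test, and the tests concern their levels along the root. Each gene had 1 probe set among the 22810 of the ATH1 array: PUB19 (locus AT1G60190), SIS (AT5G02020) and RTE1 (AT2G26070). All 3 were among the 17099 probe sets that passed the filter on low signals.

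Columbia seedlings without any transgene or mutation named in the labels were grown for 5 days, moved for 1 h to medium with 140 mM NaCl or to standard medium, and their roots were then cut by razor blade. The groups were zones 1 to 4 after NaCl and zones 1 to 4 on standard medium, with 2 arrays each and 16 in all. Zone 1 was the conical tip, about 150 µm long, and zone 2 the next 200 µm, up to about the end of the meristem. Zone 3 was the following 200 to 300 µm, ending below the first emerging hairs, and zone 4 the next 1 mm. About 15 sections were pooled per replicate. Each section held every cell type of its zone, so fewer cells of a type and less RNA per cell cannot be told apart. The hair expansin genes EXPA7 and EXPA18, used to check the zone labels, averaged 25.2 and 39.2 in standard zone 1, 24.7 and 24.1 in zone 2, 2098 and 1357 in zone 3, and 2672 and 3952 in zone 4. Nothing in the labels tells if the 2 arrays of a group come from separate cultures, so the p-values may measure technical spread alone.

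The 3 genes act at different steps of stress and hormone responses. PUB19 encodes a U-box E3 ubiquitin ligase, an enzyme that attaches ubiquitin to target proteins. With its close relative PUB18 it is known to limit responses to abscisic acid, the hormone that plants make under drought and salt. RTE1 (REVERSION-TO-ETHYLENE SENSITIVITY1) is a membrane protein that promotes the activity of the ethylene receptor ETR1, which represses ethylene responses. SIS is named Salt Induced Serine rich.

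Along the root the 3 genes did not share a pattern. PUB19 was lowest at the tip and had its highest mean in zone 3 on both media. SIS and RTE1 had their highest means at the tip on both media. SIS had its lowest mean in zone 2 and RTE1 in zone 4. Levels are MAS 5 signals, the summary intensity of a probe set on a linear scale, and differences are on the log2(signal + 16) scale.

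PUB19 in zone 1 had signals of 367 and 286 on the NaCl arrays, against 51.7 and 22.2 on the standard arrays. In zone 2 PUB19 had 561 and 560 under NaCl, against 120 and 91.8 on standard medium. The tip was thus the zone with the lowest PUB19 signals on either medium. In zone 3 PUB19 had 1367 and 1420 under NaCl, against 357 and 358 on standard medium. In zone 4 it had 1331 and 1316 under NaCl, against 256 and 118 on standard medium. The NaCl arrays of zones 3 and 4 formed the top of the range, and the standard arrays of zone 4 stood further apart from each other than those of zone 3.

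SIS in zone 1 had signals of 634 and 910 under NaCl, against 135 and 165 on standard medium. In zone 2 SIS had 170 and 222 under NaCl, against 7.84 and 27.5 on standard medium. The tip held the highest standard signals of SIS and zone 2 the lowest. In zone 3 SIS had 263 and 709 under NaCl, against 33.8 and 31.4 on standard medium. In zone 4 SIS had 390 and 310 under NaCl, against 53.0 and 62.6 on standard medium. The NaCl pair of zone 3 stood far apart, while the standard pair of that zone was close together.

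RTE1 in zone 1 had signals of 400 and 515 under NaCl, against 218 and 219 on standard medium. In zone 2 RTE1 had 203 and 238 under NaCl, against 115 and 90.7 on standard medium. The salted zone 2 arrays therefore lay on both sides of the unsalted tip. In zone 3 RTE1 had 266 and 266 under NaCl, against 114 and 99.8 on standard medium. In zone 4 RTE1 had 126 and 136 under NaCl, against 65.0 and 93.4 on standard medium. Zone 4 had the 2 lowest RTE1 signals under NaCl and the lowest mean on standard medium, where its pair overlapped that of zone 2.

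**Figure D1:**
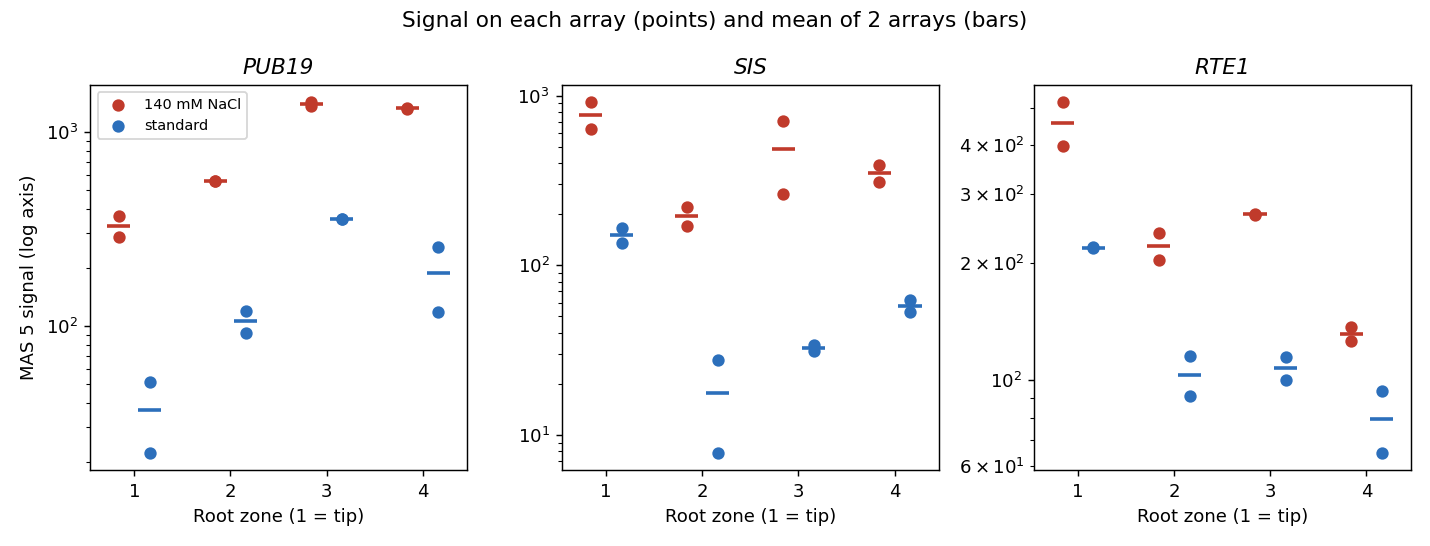
MAS 5 signal (log axis) of PUB19, SIS and RTE1 on each of the 16 arrays by root zone; points are arrays, bars the mean of 2 arrays, red 140 mM NaCl and blue standard medium. In each zone both NaCl arrays of each gene lay above both standard arrays, and PUB19 was lowest in zone 1 while SIS and RTE1 were highest there.

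In every zone both NaCl arrays of each of the 3 genes lay above both standard arrays of that zone. Of all tested probe sets, 31.4% did so in zone 1, 27.9% in zone 2, 30.4% in zone 3, 22.9% in zone 4, and 4.04% in every zone; because the genes were chosen on this contrast, nothing is read from that difference. The NaCl arrays were also set against the whole unsalted root. These counts are descriptive, since they use the values on which the genes were chosen. For SIS, all 8 NaCl arrays, at 170 to 910, exceeded all 8 standard arrays, at 7.84 to 165. For PUB19, 7 of 8 NaCl arrays exceeded every standard array, which reached 358 in zone 3, and the exception was the lower array of zone 1. For RTE1, 5 of 8 did so, the standard arrays reaching 219 in zone 1. The share of all tested probe sets with both NaCl arrays of a zone above all 8 standard arrays was 12.8% for zone 1, 5.53% for zone 2, 8.25% for zone 3 and 11.4% for zone 4. No share was computed for counts over all 8 NaCl arrays, so nothing is read from the order of the 3 genes.

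The NaCl change of PUB19, NaCl minus standard, was 2.74 in zone 1, 2.25 in zone 2, 1.92 in zone 3 and 2.81 in zone 4 (SE 0.27 each). Its mean signal was 327 ± 57.3 under NaCl against 37.0 ± 20.8 on standard medium in zone 1, and 1394 ± 37.9 under NaCl against 357 ± 0.432 on standard medium in zone 3 (SD, n = 2 each). The smallest change fell in the zone with the highest standard level, which itself enters the change, so nothing is read from this. In zone 4 the change was 3.32 without standard replicate 7 and 2.30 without standard replicate 8, the pair at 256 and 118.

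The NaCl change of SIS was 2.23, 2.71, 3.21 and 2.30 in zones 1 to 4 (SE 0.34 each). Mean signals were 772 ± 196 under NaCl and 150 ± 21.5 on standard medium in zone 1, and 196 ± 36.4 under NaCl and 17.7 ± 13.9 on standard medium in zone 2 (SD, n = 2 each). The largest estimate, in zone 3, rests on the 2 NaCl arrays that stood far apart. It was 3.90 without NaCl replicate 1 and 2.52 without NaCl replicate 2. Their gap of 1.38 on the log2 scale was larger than that of 99.7% of the tested probe sets in that pair of arrays, where the median gap was 0.19.

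The NaCl change of RTE1 was the smallest of the 3, at 1.00 in zone 1, 1.00 in zone 2, 1.20 in zone 3 and 0.64 in zone 4 (SE 0.19 each). In zone 4 it was 0.43 without standard replicate 7 and 0.86 without standard replicate 8. Mean signals were 458 ± 81.9 under NaCl and 219 ± 1.16 on standard medium in zone 1, and 131 ± 7.32 under NaCl and 79.2 ± 20.1 on standard medium in zone 4 (SD, n = 2 each). Among all tested probe sets, ordered from the largest increase, RTE1 stood at rank 333, 456, 754 and 1134 in zones 1 to 4. PUB19 stood at rank 6, 40, 225 and 28, and SIS at rank 26, 18, 31 and 63. These ranks are descriptive, since the changes were used to choose the genes.

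**Figure D2:**
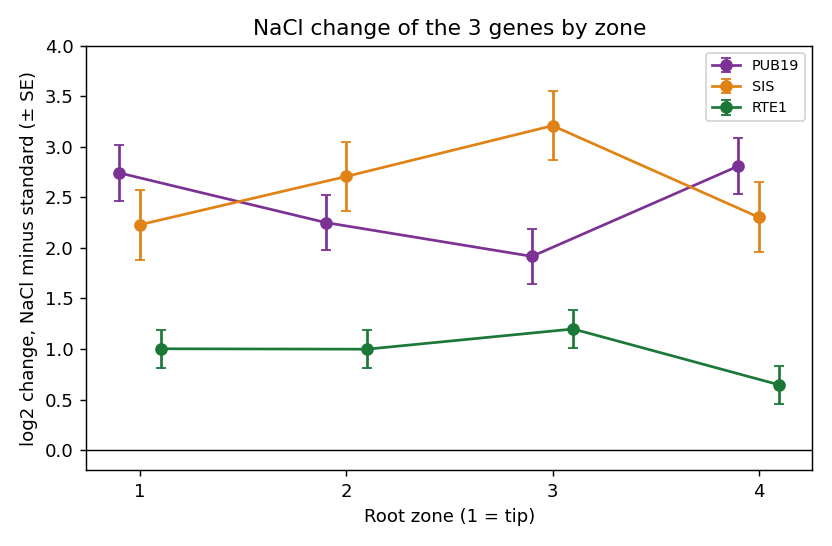
NaCl minus standard on the log2(signal + 16) scale in each zone for PUB19, SIS and RTE1; points are differences of means of 2 arrays and bars the standard error of the limma model. The PUB19 change was smallest in zone 3, at 1.92, where that of SIS was largest, at 3.21, and RTE1 lay between 0.64 and 1.20.

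Whether levels differed along the unsalted root was tested with limma, and p-values were adjusted over all 17099 probe sets. The standard arrays also enter the NaCl changes used to choose the genes, so these tests are not fully separate from that choice. All 3 genes differed between the standard zones, PUB19 with an adjusted p of 3.23e-07, SIS with 5.04e-05 and RTE1 with 3.19e-05. A difference between zones was common, passing the threshold of 0.05 for 81.5% of tested probe sets, so the count itself sets the 3 genes apart from nothing. In zone 3 relative to zone 1, PUB19 was higher, as were 30.3% of tested probe sets, and SIS and RTE1 were lower, as were 34.7%.

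On the log2 scale PUB19 zone 3 minus zone 1 was 2.88 (SE 0.27, adjusted p = 6.82e-08) and zone 4 minus zone 1 was 1.91 (adjusted p = 7.69e-06). The first spanned 2.46 to 3.29 when 1 array was left out, and the second 1.40 to 2.42. Zone 2 already exceeded the tip by 1.25 (adjusted p = 0.00189), and zone 3 exceeded zone 2 by 1.63 (adjusted p = 7.8e-05). Zone 4 was below zone 3, at -0.97 (adjusted p = 0.00779), a call lost without zone 4 standard replicate 8 (-0.46, adjusted p = 0.192) and larger without replicate 7 (-1.48, adjusted p = 0.000313). Zone 3 was above each other standard zone, a pattern found in 5.60% of tested probe sets. The order of zones 4 and 2 was not settled: their difference of 0.66 passed (adjusted p = 0.0429) but failed in 16 of 24 alternatives, among them median centring (0.38, adjusted p = 0.228) and the fit without zone 4 standard replicate 7 (0.15, adjusted p = 0.652).

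SIS was lower than at the tip in every other standard zone. Zone 2 minus zone 1 was -2.36 (SE 0.34, adjusted p = 5.13e-05), zone 3 minus zone 1 was -1.77 (adjusted p = 0.000234) and zone 4 minus zone 1 was -1.17 (adjusted p = 0.00612). Above the tip, zone 4 exceeded zone 2 by 1.19 (adjusted p = 0.00562), a call lost without zone 2 standard replicate 3 (0.76, adjusted p = 0.104) and with a pseudocount of 64 (0.59, adjusted p = 0.0598). Zones 2 and 3 differed by 0.59 (adjusted p = 0.159) and zones 3 and 4 by 0.60 (adjusted p = 0.173), neither beyond the spread. Zone 3 minus zone 2 passed without zone 2 standard replicate 4 (1.03, adjusted p = 0.0397) and was 0.16 without replicate 3 (adjusted p = 0.769). On standard medium 4 of the 8 SIS signals lay at or below the filter signal of 41.4, all in zones 2 and 3.

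RTE1 was also lower than at the tip in each other standard zone, with zone 2 minus zone 1 at -0.99 (SE 0.19, adjusted p = 0.000544), zone 3 minus zone 1 at -0.93 (adjusted p = 0.000287) and zone 4 minus zone 1 at -1.32 (adjusted p = 6.46e-06). SIS and RTE1 thus shared the tip as their highest standard zone, a pattern found in 12.0% of tested probe sets. Among the zones above the tip no pair passed for RTE1. Zone 3 minus zone 2 was 0.06 (adjusted p = 0.82), zone 4 minus zone 2 was -0.33 (adjusted p = 0.132) and zone 4 minus zone 3 was -0.38 (adjusted p = 0.106). The lower level in zone 4 passed under quantile normalization against zone 2 (adjusted p = 0.0107) and zone 3 (adjusted p = 0.0171), and under median centring against zone 2 (adjusted p = 0.00673) and zone 3 (adjusted p = 0.0181). Single arrays moved these differences as well. Without zone 4 standard replicate 8, zone 4 minus zone 2 was -0.54 (adjusted p = 0.0349) and zone 4 minus zone 3 was -0.60 (adjusted p = 0.0342), and without replicate 7 they were -0.11 (adjusted p = 0.675) and -0.17 (adjusted p = 0.576). Centring placed the median of all tested probe sets for zone 4 minus zone 2 at -0.31, against -0.03 before it.

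**Figure D3:**
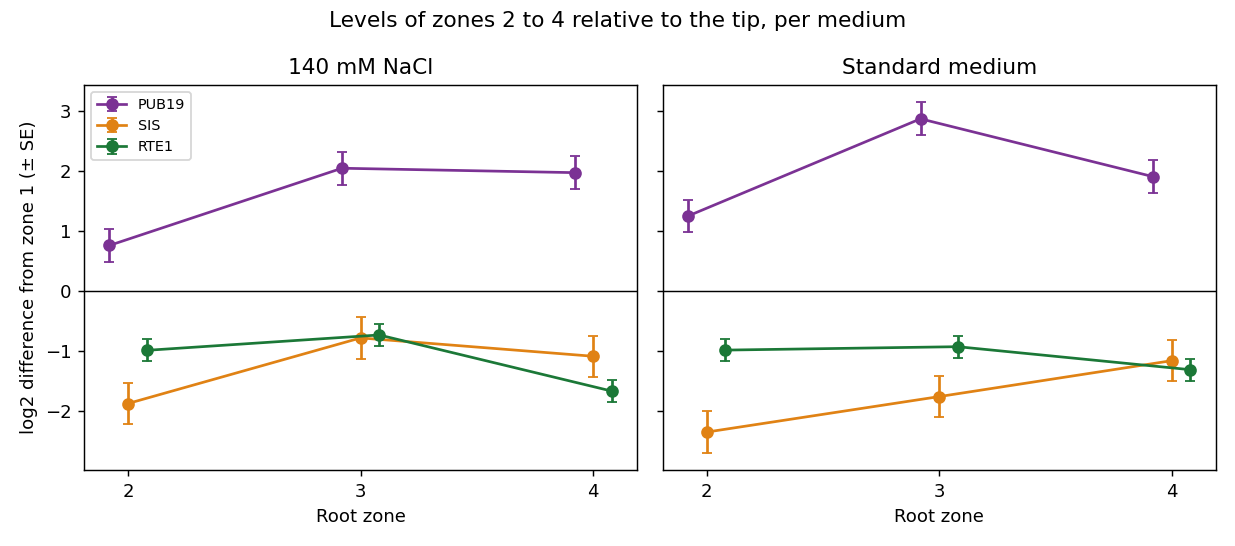
Level of zones 2 to 4 relative to zone 1 on the log2(signal + 16) scale, left under NaCl and right on standard medium; points are differences of group means (2 arrays each) and bars the standard error of the limma model. PUB19 lay above 0 in every zone on both media, and SIS and RTE1 lay below it.

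The zone differences under NaCl are not independent of those on standard medium, because a similar NaCl change in each zone carries the standard differences over. By their means PUB19 and RTE1 kept the order of zones, and SIS did not, with zones 1, 3, 4 and 2 under NaCl and zones 1, 4, 3 and 2 on standard medium from the highest down. Each gene again differed between zones, PUB19 with an adjusted p of 3.81e-06, SIS with 0.000773 and RTE1 with 2.81e-06, as did 82.2% of tested probe sets. PUB19 zone 3 minus zone 1 was 2.05 (adjusted p = 3.69e-06) and zone 4 minus zone 1 was 1.98 (adjusted p = 5.13e-06). For PUB19 under NaCl, zone 4 minus zone 3 was -0.07 (SE 0.27, adjusted p = 0.868), which did not pass. Whether that difference departs from the one on standard medium was not tested, since it is part of the contrast that chose the gene. Zone 2 minus zone 1 for PUB19, 0.76 (adjusted p = 0.0353), was lost in 6 of 25 alternatives, among them the fit without zone 1 NaCl replicate 2 (0.59, adjusted p = 0.204).

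SIS under NaCl was lower in zone 2 than in zone 1, at -1.88 (adjusted p = 0.000359). Its zone 3 minus zone 1 difference was -0.79 (adjusted p = 0.0533) and rested on the choice of zone 3 array. It was -1.47 (adjusted p = 0.000804) without zone 3 NaCl replicate 2, the array at 709, and -0.098 (adjusted p = 0.809) without replicate 1, the array at 263. Zone 3 exceeded zone 2 by 1.096 (adjusted p = 0.0117), by 0.41 without replicate 2 (adjusted p = 0.310) and by 1.78 without replicate 1 (adjusted p = 0.000198). Zone 4 minus zone 3 was -0.31 (adjusted p = 0.537) and passed without zone 3 NaCl replicate 1 (-0.99, adjusted p = 0.0252). Zone 4 minus zone 1 was -1.09 (adjusted p = 0.00919) and was lost without zone 1 NaCl replicate 2 (-0.84, adjusted p = 0.0936) or zone 4 NaCl replicate 2 (-0.93, adjusted p = 0.0695). Only the low level of zone 2 against the tip held for SIS under NaCl in each alternative run.

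RTE1 under NaCl was highest at the tip and lowest in zone 4. Zone 4 minus zone 1 was -1.68 (adjusted p = 3.61e-07), zone 4 minus zone 3 was -0.94 (adjusted p = 0.000628) and zone 4 minus zone 2 was -0.68 (adjusted p = 0.00392). Zones 2 and 3 lay between, with zone 3 minus zone 2 at 0.26 (adjusted p = 0.254). The tip exceeded each other zone for RTE1, a pattern found under NaCl in 16.3% of tested probe sets.

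Zone means averaged over both media use nothing of the NaCl changes in this balanced layout beyond the residual variance. That variance is shared by all tests of a gene, so the choice of the genes may still bear on these p-values. These means carry the most arrays. Zone 3 minus zone 1 was 2.46 for PUB19 (SE 0.19, adjusted p = 2.84e-09), -1.28 for SIS (SE 0.24, adjusted p = 0.000142) and -0.84 for RTE1 (SE 0.13, adjusted p = 1.84e-05). Zone 4 minus zone 1 was 1.94 for PUB19 (adjusted p = 5.7e-08), -1.13 for SIS (adjusted p = 0.000418) and -1.50 for RTE1 (adjusted p = 1.08e-08). All 3 genes passed the test of any zone difference, as did 88.7% of tested probe sets. The direction from the tip was thus opposite for PUB19 and the other two. Averaged over both media, 34.2% of tested probe sets were higher and 40.1% lower in zone 3 than in zone 1, and 35.2% were higher and 43.3% lower in zone 4. SIS and RTE1 also differed in where they were lowest. SIS was lower in zone 2 than in zone 4, with zone 4 minus zone 2 at 0.99 (adjusted p = 0.00142), whereas for RTE1 that difference was -0.50 (adjusted p = 0.00227).

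The correlations over arrays describe the same split. Over all 16 arrays Pearson's r of log2(signal + 16) was 0.49 for PUB19 and SIS, 0.16 for PUB19 and RTE1, and 0.80 for SIS and RTE1. Within the 8 NaCl arrays and the 8 standard arrays, r was -0.27 and -0.62 for PUB19 and SIS, and -0.73 on each medium for PUB19 and RTE1. For SIS and RTE1 it was 0.60 within the NaCl arrays and 0.65 within the standard arrays. The arrays share zones and media, so these values carry no p.

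The other genes of the U-box family were examined from a list of 36, of which 19 had a singly annotated probe set. Of these, 10 were left out because RefSeq did not carry the listed name, and 9 had a named probe set. Besides PUB19, 6 were tested: PUB22, PUB23, PUB24, PUB25, PUB43 and PUB49. They do not stand for the whole family. PUB15 and PUB26 were below the filter, and PUB18 was not analysed here. None of the 6 rose with NaCl in any zone by the limma test, where 5.01% of tested probe sets rose in zone 1, 6.19% in zone 2, 12.6% in zone 3 and 5.50% in zone 4. Their median change was -0.31, -0.05, -0.13 and 0.08 in zones 1 to 4, against 0.05, 0.02, -0.01 and -0.02 for all tested probe sets. At an unadjusted p below 0.05, 1 did, PUB49 in zone 2 (0.46, unadjusted p = 0.0341). One fell in zone 1, where 4.63% of tested probe sets fell, and another in zone 2, where 5.20% did. None fell in zone 3 or 4, where 13.2% and 6.56% of tested probe sets fell, and 0 did at an unadjusted p below 0.05.

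PUB22 and PUB23 encode related ligases known to dampen drought and immune responses. PUB22 in zone 1 had signals of 77.4 and 106 under NaCl, against 236 and 149 on standard medium, a change of -0.93 (SE 0.21, adjusted p = 0.0100). That call was lost without zone 1 standard replicate 1 (-0.63, adjusted p = 0.150) or zone 1 NaCl replicate 1 (-0.74, adjusted p = 0.118). PUB23 in zone 2 had 93.0 and 43.9 under NaCl, against 211 and 207 on standard medium, a change of -1.48 (SE 0.29, adjusted p = 0.0030). Without zone 2 NaCl replicate 2 it was -1.05 (adjusted p = 0.0595). In both cases the direction was opposite to that of PUB19 in the same zone, and PUB19 was chosen for its rise.

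Along the unsalted root, by contrast, several U-box genes ran the same way as PUB19. In zone 4 relative to zone 1, 4 of the 6 were higher and 1 lower, where 33.2% of tested probe sets were higher and 37.0% lower. PUB22 differed by 2.37 (adjusted p = 2.69e-08), PUB23 by 2.51 (adjusted p = 6.6e-07), PUB24 by 2.11 (adjusted p = 4.06e-07) and PUB43 by 0.67 (adjusted p = 0.00796). PUB43 lost this call without zone 1 standard replicate 1 (0.42, adjusted p = 0.131). PUB49 was lower, at -1.07 (adjusted p = 0.000131), and PUB25 differed by -0.13 (adjusted p = 0.700). PUB22 had mean signals of 192 ± 61.2, 220 ± 69.2, 687 ± 77.0 and 1035 ± 36.1 in standard zones 1 to 4 (SD, n = 2 each), highest in zone 4 where PUB19 was highest in zone 3.

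Of a list of 16 ethylene receptor and signalling genes, RTE1, RTH and EIN3 had a named probe set, and ETR1 was not analysed here. RTH is the homolog of RTE1, and EIN3 is a transcription factor that switches on ethylene response genes. RTH had signals of 538 and 605 under NaCl and 502 and 438 on standard medium in zone 1. In zone 4 RTH had 727 and 529 under NaCl and 646 and 800 on standard medium. Its NaCl change was 0.27, -0.06, -0.02 and -0.21 in zones 1 to 4 (SE 0.16, adjusted p = 0.345, 0.872, 0.951 and 0.503), where that of RTE1 was 1.00, 1.00, 1.20 and 0.64. EIN3 changed by 0.24, 0.29, 0.50 and 0.39 (SE 0.18, adjusted p = 0.472, 0.377, 0.0526 and 0.200). Neither passed in a zone; at an unadjusted p below 0.05 EIN3 did in zone 3 (0.0138) and zone 4 (0.0458). In zone 3 EIN3 passed the adjusted threshold without zone 2 NaCl replicate 1 (adjusted p = 0.0242) or 2 (0.0246), with the filter at the 60th percentile (0.0444) and with the 4 arrays of the zone alone (0.0352).

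RTH and RTE1 also ran in opposite directions along the unsalted root. RTH was higher in zone 3 than in zone 1 by 0.66 (adjusted p = 0.00195) and in zone 4 than in zone 1 by 0.60 (adjusted p = 0.00362). The second call was narrowly lost without zone 4 standard replicate 8 (0.45, adjusted p = 0.0545). EIN3 was lower in zone 3 than in zone 1, at -0.54 (adjusted p = 0.0160), and its zone 4 minus zone 1 difference was -0.19 (adjusted p = 0.364). The EIN3 call was lost without zone 1 standard replicate 1 (adjusted p = 0.0536), zone 1 standard replicate 2 (0.0625) or zone 3 standard replicate 6 (0.0862).

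**Figure D4:**
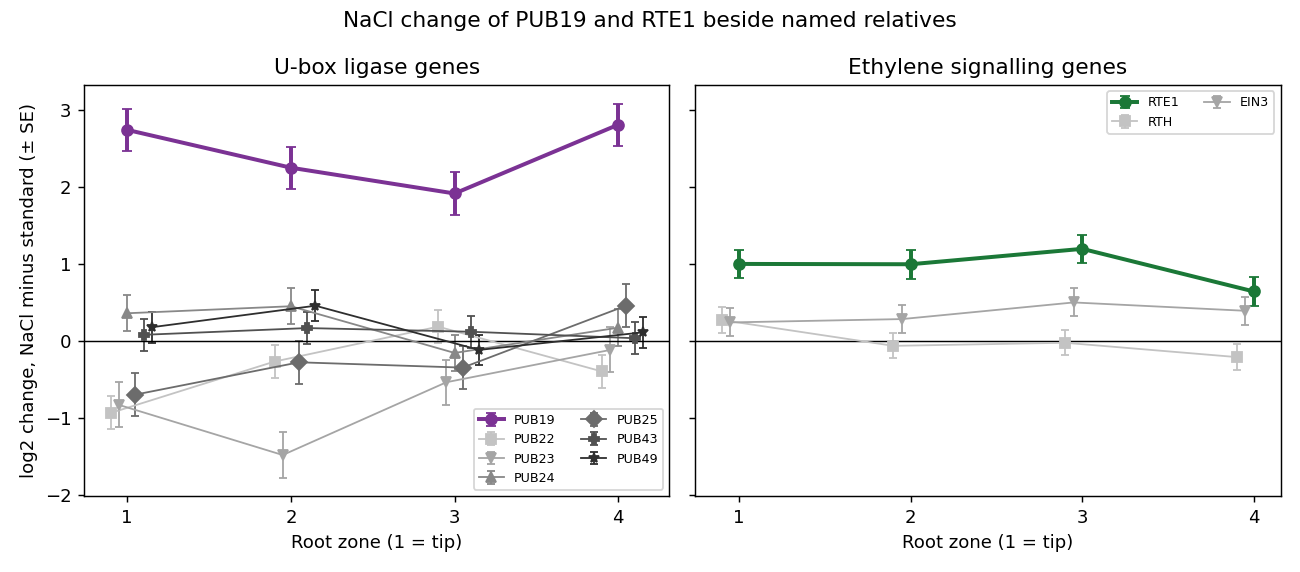
NaCl minus standard on the log2(signal + 16) scale by zone, left for PUB19 and 6 other U-box genes and right for RTE1, RTH and EIN3; points are differences of means of 2 arrays and bars the standard error of the limma model. PUB19 lay above the other U-box genes and RTE1 above RTH and EIN3 in each zone. PUB19 and RTE1 were chosen on this contrast, so nothing is read from that. PUB22 in zone 1 and PUB23 in zone 2 fell.

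Abscisic acid and water stress targets, genes that respond to the hormone whose signalling PUB19 limits, had 4 tested members of 20 listed. They rose in 2, 3, 3 and 2 of 4 cases in zones 1 to 4 by the limma test. None fell, and 0 did at an unadjusted p below 0.05. Of all tested probe sets, 5.01%, 6.19%, 12.6% and 5.50% rose and 4.63%, 5.20%, 13.2% and 6.56% fell in zones 1 to 4. The list was chosen with earlier results of these data known, so nothing is read from the excess over these shares. The dehydrin gene LTI30 changed by 3.48, 3.13, 2.64 and 1.05 in zones 1 to 4, and LEA4-5, for a late embryogenesis abundant protein, by 2.49, 3.37, 5.40 and 4.71, each with the adjusted p below the threshold. LEA4-5 averaged 4.39, 1.54 and 7.12 in standard zones 1 to 3, below the filter signal, so its changes there depend on the pseudocount. Its ratios of mean signals, NaCl over standard, were 22.5, 110, 133 and 32.2 in zones 1 to 4. By these ratios zone 2 lay above zone 4, the reverse of their order by log2 change. For the dehydrin gene COR47 the change passed in the middle zones, at 2.59 for zone 2 (adjusted p = 2.7e-08) and 1.38 for zone 3 (adjusted p = 9.82e-06). It was 0.11 in zone 1 and 0.14 in zone 4, where it did not pass. COR15B did not pass in any zone. The change differed between zones for 3 of the 4, LTI30, COR47 and LEA4-5, and for 18.3% of tested probe sets. The hair marker genes also moved with NaCl. EXPA7 changed by 1.18 in zone 3 and -1.43 in zone 4, past the threshold. EXPA18 changed by -0.87, 1.01 and -1.74 in zones 1, 3 and 4, also past the threshold. In zone 1 EXPA18 had signals of 22.7 and 7.54 under NaCl, against 41.6 and 36.8 on standard medium. Both NaCl signals and the lower standard signal lay below the filter signal, so the size of this change depends on the pseudocount. The part of the hair marker genes in the changes of the 3 genes in zones 1, 3 and 4 was not tested.

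For each gene the 5 singly annotated probe sets with the most similar pattern over the 16 arrays were found by Pearson's r. They were picked for likeness, so an order of zones shared with the gene is description only. For PUB19 they were AT5G65990 (r = 0.95), AT5G27760 (0.93), AT5G05100 (0.93), AT3G17800 (0.93) and AT4G11570 (0.90). AT5G65990 averaged 845, 1183, 3132 and 1915 under NaCl in zones 1 to 4, against 147, 168, 607 and 502 on standard medium, so that it too was highest in zone 3 on each medium. AT5G27760 followed the order of PUB19 over a narrow range, with 3626, 4263, 5132 and 5115 under NaCl and 2821, 3026, 3912 and 3621 on standard medium.

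For SIS they were the beta-glucosidase gene BGLU25 (r = 0.96), TRM19 (0.93), AT4G17840 (0.91), AT3G51750 (0.90) and AT3G47080 (0.90). BGLU25 averaged 1354, 828, 991 and 885 under NaCl in zones 1 to 4, against 872, 512, 484 and 637 on standard medium. AT3G51750 had the steepest step of the 5 from the tip on standard medium and averaged 350.2, 164, 234 and 204 under NaCl in zones 1 to 4, against 219, 24.4, 15.1 and 21.2 on standard medium. RTE1 itself stood at rank 69 of 17098 in likeness to SIS. In likeness to PUB19, SIS stood at rank 3022 and RTE1 at rank 6962. The rise with NaCl for which these genes were chosen enters r over all arrays, so these ranks are descriptive. Within the NaCl arrays and within the standard arrays, r for SIS and RTE1 was 0.60 and 0.65.

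For RTE1 they were AT1G23880 (r = 0.96), AT3G45830 (0.92), AT5G53420 (0.92), AT5G28430 (0.91) and AT4G18450 (0.91). The probe set of AT5G28430 is of a type that can match more than 1 transcript. AT1G23880 averaged 163, 102, 125 and 76.0 under NaCl in zones 1 to 4, against 103, 40.9, 45.4 and 33.5 on standard medium, and so was highest at the tip and lowest in zone 4 on both media, as RTE1 was. AT4G18450 stood out by a low level above the tip, with 268, 46.1, 63.7 and 15.4 under NaCl against 77.7, 15.4, 11.9 and 12.8 on standard medium.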

How the data were processed

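RNA from pooled root sections was amplified in 2 cycles, labelled with biotin and hybridised to ATH1 arrays, per the labels' protocols. The deposited values are MAS 5 signal intensities on a linear scale, per the submitters' processing notes; in each array the mean after trimming 2% at either end was 250.02 to 250.03. Detection calls and scan batches were not analysed here. Control probe sets (64) were left out, and 17099 probe sets above a signal of 41.4 (the 40th percentile) on at least 2 of 16 arrays were tested. Values were taken as log2(signal + 16), and a linear model of 8 group means was fitted by lmFit and eBayes with trend (limma 3.58.1, R 4.3.3), which gave 8 residual and 8.61 prior degrees of freedom. Tests were two-sided, with Benjamini-Hochberg adjustment over all 17099 probe sets and a threshold of 0.05. The number of arrays limits the precision, with a median standard error of 0.21 for a pair of zones. This fit was first tested on simulated data.

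The 3 genes and the gene lists were chosen with earlier results of these data known. Named are the 3 genes, the 5 singly annotated probe sets most correlated with each, list genes past the threshold in a zone (up to 6 a list), the other tested U-box genes as a family, and the relatives of the 3 genes that were measured. Names come from the platform annotation and RefSeq (TAIR10.1), and 9611 tested probe sets had 1 gene. Lists for abscisic acid signalling, ethylene synthesis, EXO70, cytochrome b5, sodium transport, dividing cells, tip and cap, endodermis and shoot tissue had no named probe set and were not analysed here. Alternatives were other pseudocounts (1, 64), scalings, filters, no trend, fewer arrays, each array left out, and a replicate block.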

Additional observations from a re-analysis of the deposited data

Results flagged for a closer look

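The NaCl change differed between zones for 3 genes of the abscisic acid and water stress list, by the interaction F test of the limma model: LTI30 (adjusted p = 3.11e-07), COR47 (adjusted p = 6.77e-06) and LEA4-5 (adjusted p = 4.14e-05). Such a difference passed for 18.3% of tested probe sets. Because the list was chosen with earlier results of these data known, these p-values describe the genes and are no separate evidence. LTI30 averaged 3744 under NaCl against 321 on standard medium in zone 1, and 12077 under NaCl against 5815 on standard medium in zone 4. COR47 averaged 2492 under NaCl against 392 on standard medium in zone 2, and 13861 under NaCl against 12595 on standard medium in zone 4. LEA4-5 averaged 948 under NaCl against 7.12 on standard medium in zone 3. That standard mean lay below the filter signal, as did those of zones 1 and 2, at 4.39 and 1.54. The size of the LEA4-5 change in these zones, and their order, therefore depends on the pseudocount. Groups of 2 arrays are too small for a search for outlying arrays.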

How the results depend on the processing

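The tests of any zone difference for PUB19, SIS and RTE1 stayed below the threshold in each of 216 recomputations (highest adjusted p 0.0108, for SIS under NaCl). Of 1296 recomputed zone pairs of the 3 genes, 1228 kept direction and call, 40 lost the call, 22 gained it and 6 reversed; the cause of these changes was not tested. Among the reversed pairs, RTE1 zone 3 minus zone 2 on standard medium was -0.0021 under quantile normalization, -0.049 under median centring, and -0.090 to 0.20 when 1 array was left out. SIS zone 4 minus zone 3 spanned -0.99 (adjusted p = 0.0252) to 0.38 under NaCl and -0.20 to 0.49 over both media when 1 array was left out. Among the other U-box and ethylene signalling genes, leaving out 1 array gave RTH changes of -0.16 to 0.036, -0.14 to 0.098 and -0.43 to 0.016 in zones 2 to 4. In zone 2 it gave -0.0080 to 0.58 for EIN3 and -0.57 to 0.038 for PUB22. PUB25 zone 4 minus zone 1 on standard medium spanned -0.27 to 0.018.

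The NaCl changes of the 3 genes kept their sign but depend on the pseudocount. With 1 they were 3.22 for PUB19 in zone 1 and 1.96 in zone 3, 3.62 for SIS in zone 2 and 2.57 in zone 4, and 1.31 for RTE1 in zone 3. With 64 they were 1.96, 1.88 and 1.79 for PUB19 in zones 1 to 3, 1.67, 2.38 and 1.76 for SIS in zones 2 to 4, and 0.77 and 0.95 for RTE1 in zones 2 and 3. Quantile normalization gave 1.88 for PUB19 in zone 3. Spearman's rho was 0.60 for PUB19 and SIS and 0.38 for PUB19 and RTE1.

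The number of pathway genes that fell in zone 1 was 0 to 2 when 1 array was left out and 0 with the 4 arrays of that zone alone, and in zone 2 it was 0 to 1. The number whose change differed between zones was 3 to 5. Deviations of same-numbered arrays from their group means correlated at -0.01 to 0.06 between NaCl zones and 0.03 between media in zone 1. These values cannot tell if same-numbered arrays came from the same plants. The standard arrays of zones 2 to 4 carry other numbers than the NaCl arrays. With the replicate block, SIS under NaCl passed for zone 3 minus zone 1 (-0.79, adjusted p = 0.0349) and zone 4 minus zone 2 (0.79, adjusted p = 0.0360), no call of the 3 genes was lost, and 0 pathway genes fell in zone 1, where PUB22 stayed at -0.93 (adjusted p = 0.0718). Signals below the filter limit the fold changes that they enter. Among them were 1 PUB19 array in standard zone 1, SIS in standard zones 2 and 3, and LEA4-5 in standard zones 1 to 3.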
